A study of Gallus gallus with 20 samples.

Results

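Antiviral effector genes encode the proteins with which a cell detects foreign RNA and blocks the growth of viruses. A list of 10 such genes was looked up by symbol on the chicken genome array, and 9 of the 10, of 13782 genes named on the array, were found: IFIH1, TRIM25, EIF2AK2, ZC3HAV1, MX1, IFIT5, OASL, RSAD2 and ADAR. DHX58, a regulator of RNA sensing, was not found under that symbol and was not analysed. The 9 genes were read by 15 probe sets. Of these genes, 5 had 1 probe set each and 4 had several, and a gene with several was represented by the brightest, with values of the other 6 probe sets beside it.

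The data came from HD11 cells, a chicken macrophage-like line transformed by the avian virus MC29, so the cells share this viral transformation in every group. Endotoxin-treated cells received 1 μg/ml of endotoxin from Salmonella typhimurium-798, and vehicle-treated cells received 0 μg/ml. The times of collection, in hours post stimulation (hps), were 1, 2, 4 and 8. By the study's RNA isolation methods each RNA sample pooled 3 flasks, and replicate treatments were done on different days. Its array methods name 3 replications and do not say whether they were those days. There were 3 arrays per time for endotoxin and 2 per time for vehicle, since replication 3 had no vehicle arrays. The unit of every level below is the log2 of the normalized probe set signal, so a difference of 1 is a doubling. A probe set was called when its q value, the false discovery rate estimated over all 38439 probe sets tested, was below 0.05.

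Endotoxin is sensed at the cell surface by Toll-like receptor 4. In mammalian macrophages this receptor can switch on type I interferon, and interferon then raises a large set of antiviral genes. Most genes of the list are members of that interferon-inducible set. The study states that the chicken receptor, unlike the mammalian one, cannot combine MyD88-dependent with MyD88-independent signalling. It adds that the chicken genome holds no ortholog of TRAM, an adaptor of the MyD88-independent route. The genes of the list act at successive steps. IFIH1 (MDA5) binds long double-stranded RNA and starts the signal for interferon, a task of added weight in the chicken, which lacks the related sensor RIG-I. TRIM25 is a ubiquitin ligase that assists RNA sensing. EIF2AK2 (PKR) stops protein synthesis when it binds double-stranded RNA, and ZC3HAV1 (ZAP) directs viral RNA to decay. MX1 is a large GTPase of the antiviral set, IFIT5 binds viral RNA by its end, and OASL belongs to the oligoadenylate synthetase family. RSAD2 (viperin) makes a nucleotide that ends viral RNA chains, and ADAR edits adenosine to inosine in double-stranded RNA.

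Before the results, the arrays that stood apart are named. The 2 vehicle arrays at 4 hps had a difference between the 3' and 5' actin control probe sets, a sign of RNA quality, of 0.218 to 0.346, against -0.00184 to 0.114 on the other vehicle arrays and -0.146 to 0.0113 on the endotoxin arrays at 4 hps. The endotoxin arrays of replication 3 at 1 and 2 hps had 0.111 to 0.195. The GAPDH control gave 0.0686 and -0.0336 on the 2 vehicle arrays at 4 hps, against -0.114 to 0.0660 on the other arrays. The EF1A control gave 0.160 and 0.0881 there, against 0.0862 to 0.183 on the others. Only the actin control thus set both of these vehicle arrays apart. Of the 8 macrophage markers found, 6 (CD74, SPI1, LYZ, CTSS, CYBB and CSF1R) had mean levels between percentiles 94.9 and 99.7 of all probe sets, and the scavenger receptor gene MARCO was at percentile 52.4. Markers of other cells at 4 hps were counted by the brightest probe set of each gene. Lower in endotoxin-treated cells were 1 of 5 T cell genes (CD8A), 1 of 4 B cell genes (CD79B) and 1 of 4 fibroblast genes (COL3A1). Higher were 2 of 8 macrophage genes (LYZ and CYBB). Counting any probe set, 2 of the 4 fibroblast genes were lower. Of all probe sets 3.13% were called lower and 4.95% higher at that time. The mean levels of CD8A, CD79B and COL3A1 were at percentiles 36.6, 55.3 and 57.55. The linear signals of those marker lists, summed, were 156.4 to 178.6 on the endotoxin arrays and 155.6 to 178.1 on the vehicle arrays at 4 hps for T cells, 187.6 to 204.2 and 209.9 to 214.2 for B cells, and 228.3 to 274.3 and 296.8 to 301.9 for fibroblasts. For macrophages they were 29540 to 30490 and 26550 to 28260. Levels of different probe sets are not comparable, so the sums are given as a description. All samples were of the HD11 line, and these shifts were not read as a change in cell types. Their part in the results below was not tested. In a bulk RNA sample a smaller share of responding cells and a lower level per cell cannot be told apart.

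In cells exposed to endotoxin for 4 hours, EIF2AK2 and ZC3HAV1 were lower than in vehicle-treated cells of that time, to 0.78-fold and 0.74-fold. Against the mean of vehicle at 1, 2 and 8 hps neither was called, with -0.02 (limma q = 0.740) for EIF2AK2 and -0.18 (limma q = 0.221) for ZC3HAV1. Vehicle at 4 hps was itself above that mean, by 0.34 for EIF2AK2 (called) and 0.25 for ZC3HAV1 (not called). No antiviral effector gene was called higher than vehicle of the same time at any time, with 1 exception. It was a dim TRIM25 probe set at 4 hps when the arrays were centred on ribosomal protein probe sets (0.26, limma q = 0.0309). At 4 hps 2 of the 15 probe sets were called, both lower, where 8.08% of all probe sets were called in either direction, 3.13% were called lower and 4.95% higher. Of all calls at 4 hps 61.2% were higher as deposited, and 91.5% when the arrays were centred on ribosomal protein probe sets. At 1, 2 and 8 hps none of the 15 was called, where 0.0364%, 0.0859% and 0.159% of all probe sets were called. At an unadjusted p below 0.05, 1, 3, 5 and 0 of the 15 passed at 1, 2, 4 and 8 hps, against 1338, 1663, 8594 and 2058 of all probe sets. As shares of all probe sets these were 3.48%, 4.33%, 22.4% and 5.35%. The median difference of the 15 probe sets at 4 hps was -0.19, against -0.020 over all probe sets.

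**Figure D1:**
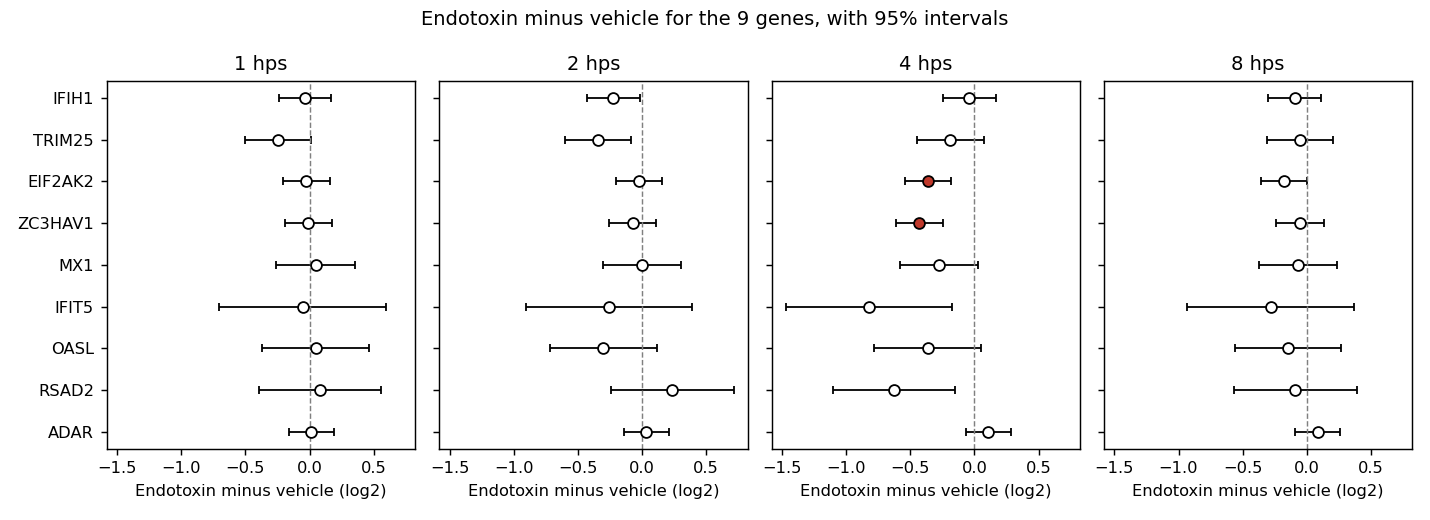
Difference in log2 level, endotoxin minus vehicle, of the brightest probe set of each of the 9 genes (rows) at 1, 2, 4 and 8 hps (panels), with 95% intervals from the fit over all arrays. Filled points are called at q below 0.05, and they are EIF2AK2 (-0.36) and ZC3HAV1 (-0.43) at 4 hps.

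EIF2AK2, the translation-blocking kinase, read 7.33, 7.17 and 7.26 on the endotoxin arrays at 4 hps in replications 1, 2 and 3, against 7.65 and 7.60 on the vehicle arrays in replications 1 and 2. All 3 endotoxin arrays lay below both vehicle arrays. The difference was -0.36 (SE 0.08, limma q = 0.0184), and it was -0.32 within replication 1 and -0.43 within replication 2. At 8 hps the arrays read 7.29, 7.26 and 7.25 with endotoxin and 7.60 and 7.31 with vehicle, again without overlap, as for 9.95% of all probe sets with endotoxin lower at that time, though the difference of -0.18 (SE 0.08) did not pass the test (limma q = 0.927). At 1 hps the levels were 7.28, 7.05 and 7.08 with endotoxin and 7.22 and 7.12 with vehicle, and at 2 hps they were 7.15, 7.23 and 7.18 with endotoxin and 7.37 and 7.08 with vehicle, so the groups overlapped at both early times. The differences there were -0.02 and -0.03.

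The levels of EIF2AK2 in endotoxin-treated cells stayed close at all times, and the high point of the series was vehicle at 4 hps. The order of the fitted group means ran from vehicle at 4 hps (7.69) through vehicle at 8 hps (7.52), endotoxin at 8 hps (7.34), endotoxin at 4 hps (7.33), vehicle at 2 hps (7.29), endotoxin at 2 hps (7.26) and vehicle at 1 hps (7.24) to endotoxin at 1 hps (7.21). The first step down in that order was 0.17 (SE 0.09), the next was 0.18 (SE 0.08), and every later step was smaller than its SE. EIF2AK2 changed over time in vehicle-treated cells (limma F test, q = 0.0140), and in endotoxin-treated cells it did not pass (q = 0.276). Vehicle at 4 hps was above the mean of vehicle at 1, 2 and 8 hps by 0.34 (SE 0.07, limma q = 0.0196), while endotoxin at 4 hps differed from that same mean by -0.02 (SE 0.07, 95% interval -0.16 to 0.12, limma q = 0.740).

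ZC3HAV1, the zinc finger protein that sends viral RNA to decay, read 8.23, 8.19 and 8.26 with endotoxin at 4 hps, against 8.85 and 8.47 with vehicle. The 3 endotoxin arrays lay within a narrow band below both vehicle arrays. The difference was -0.43 (SE 0.09, limma q = 0.0114), and it was -0.62 within replication 1 and -0.28 within replication 2. At 8 hps the levels were 8.70, 8.40 and 8.46 with endotoxin and 8.73 and 8.42 with vehicle, at 2 hps 8.57, 8.07 and 8.34 with endotoxin and 8.57 and 8.25 with vehicle, and at 1 hps 8.41, 8.06 and 8.19 with endotoxin and 8.35 and 8.13 with vehicle. For this brightest probe set the groups overlapped at those 3 times, with differences of -0.05, -0.07 and -0.01. The other probe sets of the gene differed by -0.27 (SE 0.15, limma q = 0.181) and -0.01 (SE 0.15, limma q = 0.584) at 4 hps, so the call rested on the brightest probe set. Those other probe sets differed by -0.16 and -0.28 at 1 hps, by -0.22 and -0.23 at 2 hps and by -0.06 and -0.05 at 8 hps. The SE was 0.15 for each, and none of these values was called.

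ZC3HAV1 was called for change over time in both treatments, with q = 0.0278 in endotoxin-treated cells and q = 0.0259 in vehicle-treated cells (limma F tests). The endotoxin call was lost without the replication term, with replication as a random block, with Benjamini-Hochberg adjustment, without any 1 replication, without any 1 endotoxin array at 8 hps and without the endotoxin array of replication 3 at 1 hps. The fitted means of ZC3HAV1 ran from vehicle at 4 hps (8.81) through vehicle at 8 hps (8.73), endotoxin at 8 hps (8.67), vehicle at 2 hps (8.56), endotoxin at 2 hps (8.48), vehicle at 1 hps (8.39) and endotoxin at 4 hps (8.38) to endotoxin at 1 hps (8.38). No neighbouring means in that order differed by more than 1.36 times the SE of their difference. Endotoxin at 4 hps differed from the mean of vehicle at 1, 2 and 8 hps by -0.18 (SE 0.07), which did not pass (limma q = 0.221), and vehicle at 4 hps differed from that mean by 0.25 (SE 0.08, limma q = 0.05002).

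**Figure D2:**
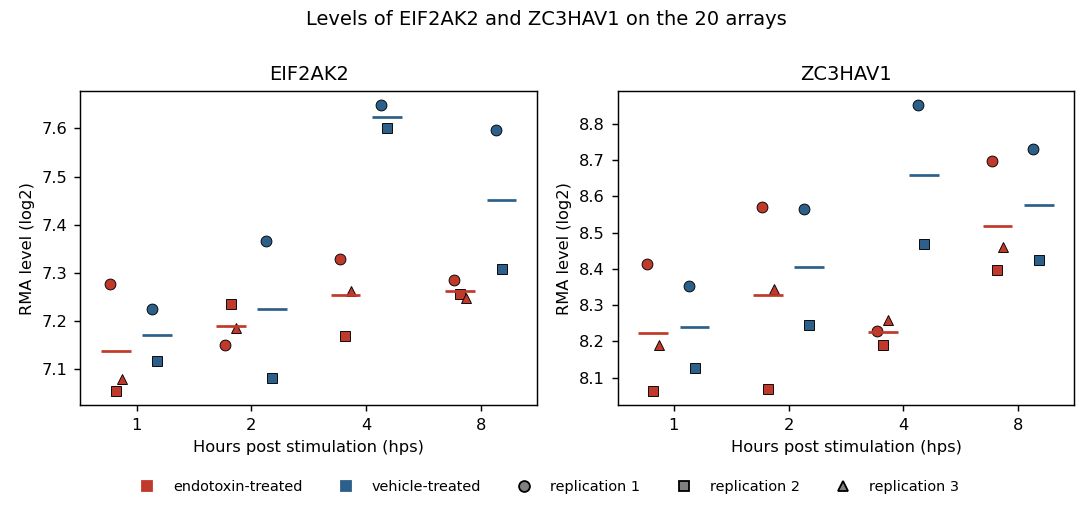
Log2 level (vertical axis) of the brightest probe sets of EIF2AK2 and ZC3HAV1 on the 20 arrays by hours post stimulation, with endotoxin in red left of vehicle in blue, marker shape for replication and a line at each group's mean. At 4 hps the endotoxin arrays lie between 7.17 and 7.33 for EIF2AK2 and between 8.19 and 8.26 for ZC3HAV1, below both vehicle arrays of each gene.

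Both calls depended on the vehicle arrays and on the model used. Of 37 alternative settings, the call at 4 hps held in 27 for EIF2AK2 and 29 for ZC3HAV1. Those settings include the removal of single arrays of other groups. Against the mean of vehicle at 1, 2 and 8 hps, 0 of the 15 probe sets were called in endotoxin-treated cells at 4 hps, where 1.30% of all probe sets were called. At an unadjusted p below 0.05, 6 of the 15 passed, where 12.6% of all probe sets did. Vehicle at 4 hps against that mean gave 1 call, EIF2AK2, higher, where 5.47% of all probe sets were called and 1.72% were called higher. Without the replication term the differences at 4 hps were -0.37 for EIF2AK2 (limma q = 0.105) and -0.43 for ZC3HAV1 (limma q = 0.182). They were close in size but not called. Under that setting far fewer of all probe sets were called at 4 hps than the 3106 of the main fit, so the loss of these calls is not particular to the 2 genes. With the actin 3' to 5' difference as a covariate EIF2AK2 differed by -0.35 (limma q = 0.264) and ZC3HAV1 by -0.60 (limma q = 0.119) at 4 hps. The share of all probe sets called with that covariate is not given here. Leaving out the vehicle array of replication 1 at 4 hps left 0 of 15 called. Leaving out that of replication 2 left 1, ZC3HAV1, and leaving out the endotoxin array of replication 1 at 4 hps likewise left ZC3HAV1. Leaving out the endotoxin array of replication 2 at 4 hps gave 6 calls. The share of all probe sets called in each of these single-array settings is not given here. These counts are therefore not read as a result about the antiviral genes. The test of the interaction of dose and time called 0 of 15, as it called 0% of all probe sets, with q = 0.301 for EIF2AK2 and q = 0.232 for ZC3HAV1 (limma). In that test 3 of the 15 passed an unadjusted p below 0.05, where 11.5% of all probe sets did.

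**Figure D3:**
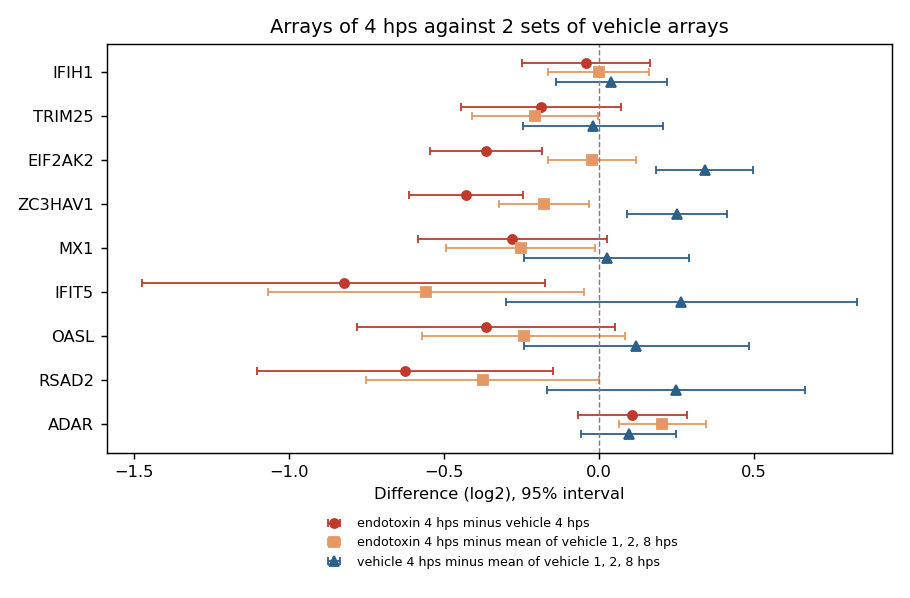
Differences in log2 level with 95% intervals for the brightest probe set of each of the 9 genes at 4 hps, for endotoxin against vehicle of the same time (circles), endotoxin at 4 hps against the mean of vehicle at 1, 2 and 8 hps (squares) and vehicle at 4 hps against that mean (triangles). For EIF2AK2 the values are -0.36, -0.02 and 0.34, and for IFIT5 they are -0.82, -0.56 and 0.27.

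The effectors MX1, IFIT5, OASL and RSAD2, all strongly inducible by interferon, varied more among arrays, and none was called against vehicle at 4 hps. IFIT5, the RNA end-binding protein, read 6.64, 6.71 and 6.52 with endotoxin at 4 hps, against 8.02 and 7.04 with vehicle. No array overlapped, and the difference was -0.82 (SE 0.30, 95% interval -1.47 to -0.17, limma q = 0.0761), made up of -1.38 within replication 1 and -0.33 within replication 2. The other, dimmer IFIT5 probe set read 3.86, 3.83 and 3.89 with endotoxin at 4 hps and 3.74 and 3.95 with vehicle, overlapping, with a difference of 0.01 (SE 0.13, limma q = 0.581), so the difference at 4 hps rested on the brightest probe set. RSAD2, or viperin, was read by 1 dim probe set, with a mean of 4.11 at percentile 29.5 of all probe sets. Its spread left after the fit was at percentile 98.55. It read 3.51, 3.92 and 3.71 with endotoxin and 4.77 and 4.00 with vehicle. Here too the groups did not overlap, with a difference of -0.62 (SE 0.22, 95% interval -1.10 to -0.15, limma q = 0.0696), which was -1.26 within replication 1 and -0.08 within replication 2.

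OASL read 9.19, 9.25 and 9.09 with endotoxin at 4 hps and 9.83 and 9.28 with vehicle. The difference was -0.36 (SE 0.20, limma q = 0.172), and the second vehicle array lay just above the endotoxin arrays. MX1, the large GTPase, read 7.80, 7.94 and 7.73 with endotoxin and 8.47 and 7.81 with vehicle, so the groups overlapped. Its difference was -0.28 (SE 0.14, limma q = 0.161). Of the 9 genes, 5 had every endotoxin array below both vehicle arrays at 4 hps and 1, ADAR, had every endotoxin array above them. Over all probe sets such separation was found in 15.7% with endotoxin lower and 15.7% with endotoxin higher.

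Without the endotoxin array of replication 2 at 4 hps, the differences at 4 hps were -1.23 for IFIT5 (limma q = 0.0152), -0.89 for RSAD2 (q = 0.0195), -0.65 for OASL (q = 0.0228) and -0.50 for MX1 (q = 0.0142), all called. Without the endotoxin array of replication 1 they were smaller, at -0.38 for IFIT5 (q = 0.340) and -0.30 for RSAD2 (q = 0.315). The calls of these genes thus depended on which endotoxin array was left out. The shares of all probe sets called in these settings are not given here. RSAD2 was also called without the endotoxin array of replication 1 at 2 hps (difference -0.65, q = 0.0366).

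The same genes also differed between replications. In replication 1 IFIT5 read 7.62, 8.33 and 7.95 with endotoxin at 1, 2 and 8 hps and 7.28, 8.00, 8.02 and 8.19 with vehicle at 1, 2, 4 and 8 hps. In replication 2 it read 5.95, 6.26 and 6.34 with endotoxin at 1, 2 and 8 hps and 6.39, 7.04, 7.04 and 6.67 with vehicle at 1, 2, 4 and 8 hps. Every one of those replication 1 arrays was above every replication 2 array. Replication 3, with endotoxin only, read 6.52, 6.95, 6.52 and 6.91 at 1, 2, 4 and 8 hps.

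Taking the replication term of the same fit, a comparison chosen after the values were seen, IFIT5 was higher in replication 1 than in replication 2 by 1.21 (SE 0.16, limma q = 0.00715), or 2.31-fold. OASL was higher by 0.73 (SE 0.10, q = 0.00836), MX1 by 0.52 (SE 0.08, q = 0.0110) and ZC3HAV1 by 0.30 (SE 0.05, q = 0.0128). Thus 4 of the 15 probe sets were called, all higher in replication 1, where 0.260% of all probe sets were called in either direction and 0.221% higher. RSAD2 differed by 0.49 (q = 0.115), TRIM25 by 0.23 (q = 0.185), IFIH1 by 0.19 (q = 0.185) and EIF2AK2 by 0.13 (q = 0.301), none of them called, and ADAR differed by -0.05 (q = 0.696). Without either vehicle array at 8 hps the count was 2, with MX1 and ZC3HAV1 at q = 0.0514 and q = 0.0541, without either vehicle array at 4 hps it was 3, with ZC3HAV1 at q = 0.0535, without the endotoxin array of replication 1 at 4 hps it was 6, with RSAD2 and IFIH1 added, and without that of replication 2 it was 5, with RSAD2 added. Without moderation of the variances it was 0. The shares of all probe sets called under these settings are not given here. What differed between the replications was not tested.

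For several of these genes the exception within replication 1 was the endotoxin array at 4 hps. The replication 1 array exceeded that of replication 2 in at least 7 of the 8 groups for 8 of the 9 genes, as it did for 5.52% of all probe sets. For MX1, IFIT5, OASL, IFIH1, TRIM25 and RSAD2 the group that broke the pattern was endotoxin at 4 hps. How often that group broke the pattern over all probe sets was not counted, so this is given as a description. For 6 of the 9 genes (ZC3HAV1, MX1, IFIT5, OASL, TRIM25 and RSAD2) that array was the lowest of the 8 in replication 1, as it was for 18.3% of all probe sets. IFIT5 read 6.64 on it, against 7.28 to 8.33 on the other 7, and OASL read 9.19, against 9.61 to 10.04. In replication 2 the endotoxin array at 4 hps read 6.71 for IFIT5, within the 5.95 to 7.04 of that replication, and the 3 endotoxin arrays at 4 hps spanned 6.52 to 6.71, a narrower range than the endotoxin arrays of any other time.

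**Figure D4:**
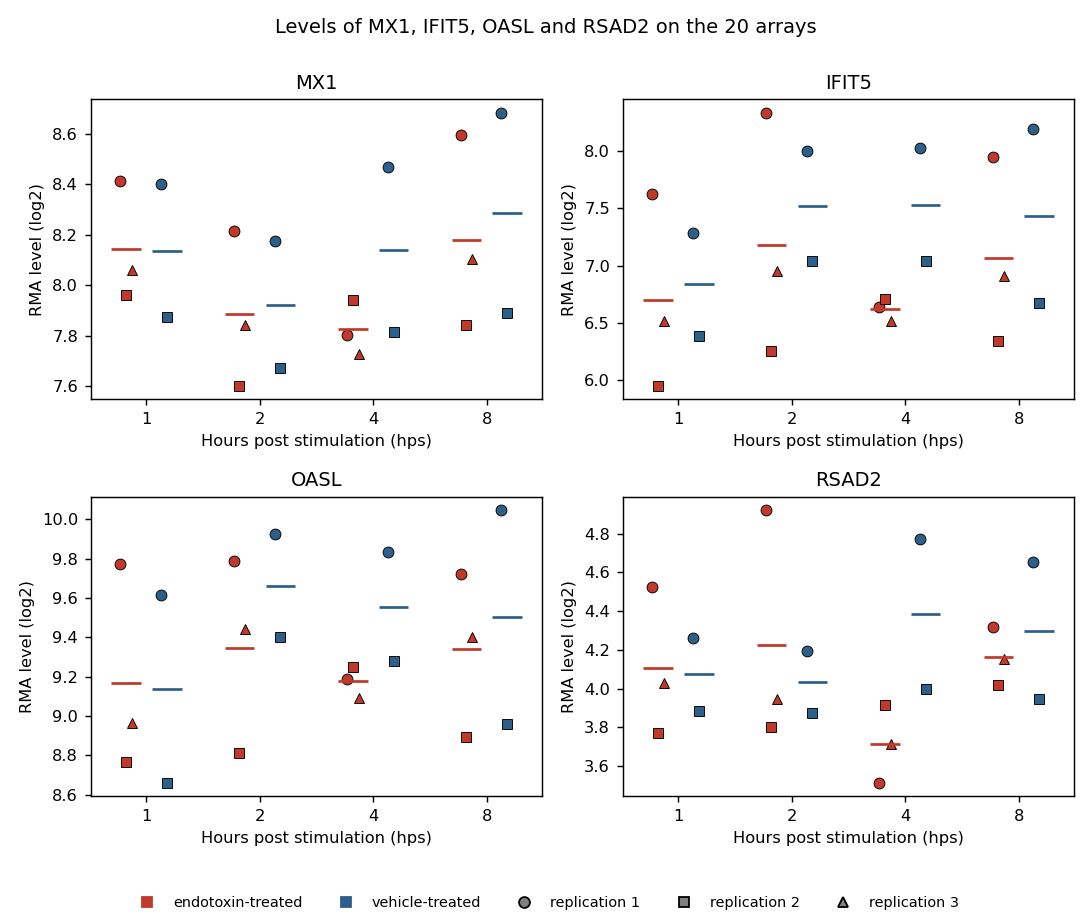
Log2 level (vertical axis) of MX1, IFIT5, OASL and RSAD2 on the 20 arrays by hours post stimulation, endotoxin in red left of vehicle in blue, with marker shape for replication and a line at each group's mean. Circles (replication 1) lie highest in every group but endotoxin at 4 hps, where the IFIT5 arrays read 6.64, 6.71 and 6.52.

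**Figure D5:**
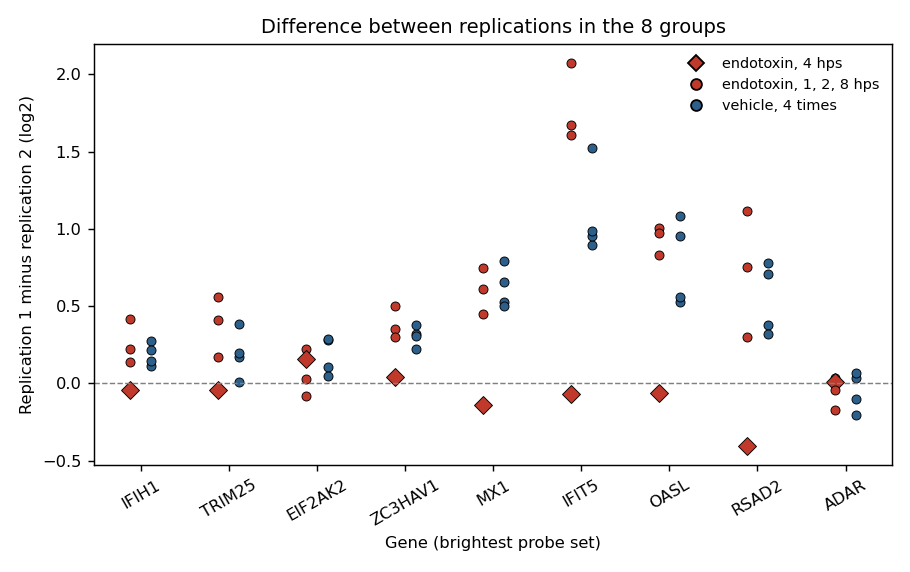
Difference in log2 level between the arrays of replications 1 and 2 (vertical axis) in each of the 8 groups, for the brightest probe set of each gene, endotoxin in red left of vehicle in blue and diamonds for endotoxin at 4 hps. For IFIT5 the difference is -0.07 in endotoxin at 4 hps and 0.89 to 2.07 in the other 7 groups.

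Several pairs of these genes moved together across the 20 arrays, which share replication and treatment. How often pairs over all probe sets reach such values was not counted. Pearson's r, given as a description, was 0.948 for IFIT5 with OASL, 0.862 for IFIT5 with ZC3HAV1, 0.857 for IFIT5 with RSAD2 and 0.804 for MX1 with RSAD2. EIF2AK2 had r = 0.725 with ZC3HAV1 and 0.505 with IFIT5, and ADAR ran against IFIT5 with r = -0.445. Other pairs were looser, with r = 0.296 for MX1 with TRIM25, 0.409 for MX1 with EIF2AK2 and 0.456 for MX1 with IFIH1. The brightest and the dimmer IFIT5 probe set had r = 0.240 with each other. After the group and replication terms were taken out, r was -0.301 for EIF2AK2 with ZC3HAV1 and -0.286 for EIF2AK2 with IFIT5, opposite in sign. It was 0.814 for IFIT5 with ZC3HAV1 and 0.782 for IFIT5 with OASL. The fit takes 1 replication difference for all groups. In endotoxin at 4 hps that difference was -0.07 for IFIT5, -0.06 for OASL and 0.04 for ZC3HAV1, below every other group. This leaves shared residuals in these 3 genes, and their part in the r values was not tested. The probe sets nearest to ZC3HAV1 over the 20 arrays were those of EPSTI1 (r = 0.894), an interferon-responsive gene in mammals, NEURL (r = 0.894), a ubiquitin ligase gene, and PUSL1 (r = 0.870), a pseudouridine synthase-like gene. Those nearest to EIF2AK2 were RCJMB04_1l12 (r = 0.810), SMAD1 (r = 0.810), which carries the signal of bone morphogenetic proteins, and RCJMB04_19o18 (r = 0.801). Vehicle at 4 hps was above vehicle at 1, 2 and 8 hps for RCJMB04_1l12 by 0.31 (limma q = 0.0215). It was also above for RCJMB04_19o18 by 0.23 (limma q = 0.0463) and NEURL by 0.26 (limma q = 0.0364). SMAD1 (0.16), EPSTI1 (0.27) and PUSL1 (0.18) were not called in that comparison. All these r values include the vehicle arrays at 4 hps that stood apart.

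The RNA sensing genes showed small differences. IFIH1 read 8.52, 8.56 and 8.40 with endotoxin at 4 hps and 8.74 and 8.52 with vehicle, a difference of -0.04 (SE 0.10, 95% interval -0.25 to 0.17) that was 0.055 with ribosomal centring. At 2 hps it read 8.74, 8.32 and 8.07 with endotoxin and 8.76 and 8.64 with vehicle, a difference of -0.22 (SE 0.10) that did not pass. The second, dim IFIH1 probe set differed by 0.16 at 2 hps, in the other direction.

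The brightest probe set of TRIM25 differed by -0.24, -0.34, -0.19 and -0.05 at 1, 2, 4 and 8 hps and was not called. At 2 hps it read 5.59, 5.18 and 5.40 with endotoxin and 5.85 and 5.68 with vehicle, without overlap, as for 9.2% of all probe sets with endotoxin lower at that time, and the SE of the difference was 0.12. Averaged over 1, 2 and 8 hps the difference was -0.21 (SE 0.07, limma q = 0.737), and of the 15 probe sets 0 were called in that average, where 0.271% of all were. A much dimmer TRIM25 probe set had 2.88, 2.79 and 2.72 with endotoxin at 2 hps and 3.14 and 3.11 with vehicle, a difference of -0.28 (SE 0.07, limma q = 0.611), and it was 1 of 3 probe sets called for change over time in vehicle-treated cells (q = 0.0195), with EIF2AK2 and ZC3HAV1, where 7.55% of all probe sets were called. At 4 hps that dim probe set read 2.93, 2.87 and 2.80 with endotoxin and 2.72 and 2.79 with vehicle, without overlap in the other direction, a difference of 0.16 (SE 0.07, limma q = 0.123). A further dim TRIM25 probe set differed by 0.34 (SE 0.12, limma q = 1.00), -0.08, 0.05 and 0.12 at 1, 2, 4 and 8 hps. Its endotoxin arrays lay above both vehicle arrays at 1 and 8 hps, as for 9.1% and 10.3% of all probe sets, so the TRIM25 probe sets differed in direction. In endotoxin-treated cells ZC3HAV1 was the 1 of 15 called for change over time, where 10.9% of all were.

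ADAR, the RNA editing enzyme, was the steadiest gene of the list, with a range of 0.34 over the 20 arrays, against 2.38 for IFIT5. It read 8.88, 8.87 and 8.77 with endotoxin at 4 hps and 8.76 and 8.69 with vehicle, all endotoxin arrays lying above the vehicle arrays. The difference was 0.11 (SE 0.08, limma q = 0.282), and against vehicle at 1, 2 and 8 hps it was 0.21 (SE 0.07, limma q = 0.135). Against vehicle at 1, 2 and 8 hps ADAR was called higher with centring on ribosomal protein probe sets, by 0.33 (q = 0.00615), where 25.2% of all probe sets were called, and among the probe sets brighter than the median, by 0.21 (q = 0.0484), where 5.95% were.

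The genes around these effectors were described from 4 lists, each gene by its brightest probe set. The counts of these lists at 4 hps stand beside 4.95% of all probe sets called higher and 3.13% called lower. Counting any probe set of a gene, 2 of 8 interferon and receptor genes and 1 of 16 signalling genes were higher. So were 3 of 24 other effectors and 4 of 17 sensing genes. In the same order 0, 1, 2 and 0 genes were lower. A gene with several probe sets has more chances of a call. Of 8 genes of interferons and their receptors, 1 was higher at 4 hps and none was lower, IL28RA, a subunit of the interferon lambda receptor, by 0.54 (limma q = 0.0231). Without the vehicle arrays at 4 hps, against vehicle at 1, 2 and 8 hps, IL28RA differed by 0.28 (q = 0.0680). Of 16 genes of interferon signalling and its control, 1 was lower at 4 hps and none was higher. It was USP18, which damps signalling from the interferon receptor in mammals. USP18 read 11.80, 11.76 and 11.71 with endotoxin at 4 hps and 12.41 and 12.06 with vehicle, a difference of -0.45 (SE 0.09, limma q = 0.0120), which was -0.27 (q = 0.0811) against vehicle at 1, 2 and 8 hps. Like IFIT5 and OASL it was higher in replication 1 than in replication 2, by 0.38 (limma q = 0.00715), and lowest in replication 1 on the endotoxin array at 4 hps.

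Of 24 other antiviral effectors, 1 was higher and 1 lower at 4 hps. ISG20L1, of an exonuclease family, was higher by 0.54 (limma q = 0.0298), but it differed by 0.12 (q = 0.579) against vehicle at 1, 2 and 8 hps without the vehicle arrays at 4 hps, and by 0.061 (q = 0.713) with the actin covariate. CMPK2, a nucleotide kinase that supplies the substrate of viperin in mammals, read 6.13, 6.18 and 6.33 with endotoxin and 6.84 and 6.47 with vehicle, without overlap. Its difference was -0.46 (SE 0.11, limma q = 0.0214), and -0.33 (q = 0.0747) against vehicle at 1, 2 and 8 hps. Between replications 1 and 2, 4 of the 24 were higher in replication 1 and none was lower: ISG12-2 by 1.03, CMPK2 by 0.37, LY6E by 0.36 and PARP14 by 0.26. In that comparison 0.221% of all probe sets were called higher.

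Of 17 genes of nucleic acid sensing upstream of interferon, 1 was higher at 1 hps and 2 were higher at 4 hps, with none lower. Of all probe sets 0.0364% were called at 1 hps in either direction, and 4.95% were called higher at 4 hps. TRAF3, an adaptor between RNA sensors or Toll-like receptors and interferon, read 8.36, 8.43 and 8.03 with endotoxin at 1 hps and 7.44 and 7.46 with vehicle. It was higher by 0.88 (SE 0.14, limma q = 0.0300) at 1 hps and by 0.71 (SE 0.14, limma q = 0.00918) at 4 hps, and by 0.66 (q = 0.00486) at 4 hps against vehicle at 1, 2 and 8 hps. A second TRAF3 probe set differed by 0.42 (SE 0.14, limma q = 1.00) at 1 hps, not called, and by 0.68 (SE 0.14, limma q = 0.0118) at 4 hps. At 4 hps TRAF3 was thus called higher against both sets of vehicle arrays, and it differed by -0.04 (q = 0.790) between replications 1 and 2. IKBKE, a kinase that activates interferon regulatory factors, was higher by 0.78 (limma q = 0.0396) at 4 hps, but it differed by 0.18 (q = 0.483) against vehicle at 1, 2 and 8 hps without the vehicle arrays at 4 hps, and by -0.075 with the actin difference as a covariate. Of 37 alternative settings, the call at 4 hps held in 31 for TRAF3, 27 for USP18, 25 for CMPK2, 25 for IL28RA, 23 for ISG20L1 and 19 for IKBKE, and that of TRAF3 at 1 hps held in 18. In the same lists no gene was called at 2 or 8 hps taken alone. In the average over 1, 2 and 8 hps TRAF3 was called higher, by 0.69 (limma q = 0.000544), where 0.271% of all probe sets were called. Its second probe set was called there too, by 0.55 (limma q = 0.00553). The brightest and the second TRAF3 probe set differed by 0.60 and 0.56 at 2 hps and by 0.60 and 0.68 at 8 hps. The median differences at 4 hps were 0.013 for interferons and receptors, 0.056 for signalling, 0.0031 for sensing and -0.058 for the other effectors, against -0.020 over all probe sets.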

How the data were processed

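Levels were measured on 20 Affymetrix chicken genome arrays, 12 from endotoxin-treated and 8 from vehicle-treated cells. The authors deposited log2 values after robust multi-array averaging (RMA), which subtracts background, quantile-normalizes the arrays and summarizes probes, so a shift of most genes is removed and levels of different probe sets are not comparable. The deposited fold-change columns hold the authors' own comparisons, and only the gene symbols beside them were used. The RMA version and annotation release are not given in the sources used here. No genome build was given, so no coordinates or sequences are printed.

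Of 38535 probe sets, 96 controls were left out, and 38439 were tested with limma 3.58.1 in R 4.3.3. The model had a mean for each of 8 groups and replication as a fixed term, as the study's methods block by replication, with 10 residual and 5.13 prior degrees of freedom. Differences are endotoxin minus vehicle. Values of q came from the histogram estimate with 20 bins, and 95% intervals from moderated errors. The study's RNA isolation methods put replicate treatments on different days, and its array methods name no days. The difference between replications 1 and 2 correlated between endotoxin and vehicle arrays over probe sets with r of -0.141, 0.236, 0.0684 and 0.113 at 1, 2, 4 and 8 hps. The number of arrays limits the precision. The fits were tested on simulated data with independent noise, no replication effect and no arrays that stood apart. That simulation therefore says nothing on how the calls depend on single arrays or replications.

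The 10 symbols, the 7 gene lists and the markers were chosen with earlier results of these data known. Of other genes, those called in a list at any time by the brightest probe set were named, at most 4 per list and time, and the 3 with the pattern nearest to EIF2AK2 and ZC3HAV1. ISG12-2, LY6E and PARP14 and the comparison of replications were chosen after the values were seen. Symbols were those of the files, and EIF2AK2, ZC3HAV1, MX1 and ADAR were matched by RefSeq accession to the same symbol. The alternatives changed the block, q method, moderation, array weights, normalization, centring, filter and arrays used. The level of 1 marker gene is not reported here.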

Additional observations from a re-analysis of the deposited data

How the results depend on the processing

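Across 38 alternative settings, 23 of which left out a single array or a replication, 4410 of 4598 values of single probe sets kept their side of the threshold, 167 lost a call, 20 gained one and 1 called value changed sign (IKBKE at 4 hps, -0.075 with the actin difference as a covariate). A further 189 values, uncalled in both fits, changed sign. At 1, 2 and 8 hps, in the average over those times and in the interaction, 0 of the 15 antiviral probe sets were called under every setting run. The 2 calls at 4 hps became 1 with replication as a random block and 0 with no replicate block, with the arrays of that time alone, with the vehicle arrays at 4 hps left out (against the mean of vehicle at 1, 2 and 8 hps) and with the actin covariate. They ranged over 0 to 6 when 1 array or replication was left out. With no replicate block the counts were also 0 for vehicle at 4 hps against the other vehicle times and 0 for change over time in either treatment, and all probe sets called at 4 hps numbered 49, against 3106. For endotoxin at 4 hps against vehicle at 1, 2 and 8 hps the 0 calls became 1 (ADAR) with centring on ribosomal protein probe sets, where 25.2% of all probe sets were called, and 1 (ADAR) of 10 measured among the probe sets brighter than the median, where 5.95% were, and 0 to 1 with an array left out (MX1 without endotoxin replication 2 at 4 hps). For vehicle at 4 hps the 1 call became 2 with trend and robust options, cyclic loess, ribosomal centring or the brighter probe sets, 0 with the actin covariate, and 0 to 2 with an array or replication left out. For change over time in endotoxin-treated cells the 1 call became 0 with the random block, Benjamini-Hochberg adjustment or without the replication 3 endotoxin arrays of 1 and 2 hps, 4 with ribosomal centring, 5 among the brighter probe sets, and 0 to 4 with an array or replication left out. In vehicle-treated cells the 3 calls became 1 with the actin covariate and 0 to 5 with an array or replication left out. The 4 calls between replications became 0 with no moderation and 2 to 6 with an array left out. Centring on ribosomal protein probe sets shifted the median of all probe sets in endotoxin at 4 hps against vehicle at 1, 2 and 8 hps to 0.13, against 0.0041 as deposited, and turned 49.7% of calls higher into 96.8%. For endotoxin against vehicle at 4 hps the share higher was 91.5% with that centring and 61.2% as deposited, and 62.9% with cyclic loess. For vehicle at 4 hps against the other vehicle times it was 48% with that centring and 31.5% as deposited. EIF2AK2 and ZC3HAV1 were lower against vehicle at 4 hps under both scalings, with differences of -0.27 and -0.33 with ribosomal centring. Under ribosomal centring 1 dim TRIM25 probe set was higher at 4 hps, by 0.26 (q = 0.0309). The cause of these changes was not tested. The comparison of replications could not be fitted without replication 1 or 2. Where no share stands beside a count, the share of all probe sets called under that setting is not given here. With 2 vehicle arrays per time, differences of the size seen for IFIT5 and RSAD2 were estimated with SEs of 0.30 and 0.22.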

Other observations

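Other partners of the effectors were read from the remaining 3 lists at 4 hps, where 4.95% of all probe sets were called higher and 3.13% lower. Of 16 genes around EIF2AK2 (the other EIF2 kinases, their substrate and the partners of PKR), 1 was higher and 1 was lower in endotoxin-treated cells by the brightest probe set. EIF2B5, the catalytic subunit of the exchange factor that phosphorylated EIF2 blocks, was higher by 0.47 (limma q = 0.0197), but it differed by 0.12 (q = 0.470) against vehicle at 1, 2 and 8 hps without the vehicle arrays at 4 hps, and by 0.20 (q = 0.535) with the actin covariate. PPP1CB, a phosphatase subunit, differed by -0.27 (q = 0.0499) on its brightest probe set and by 0.49 (q = 0.0384) on another, so its direction depended on the probe set. Of 37 alternative settings, the call at 4 hps held in 27 for EIF2B5 and 5 for PPP1CB. Of 11 RNA decay partners of ZC3HAV1 and 10 adenosine deaminases and double-stranded RNA binding proteins, 0 were called by the brightest probe set. Their list medians were 0.062 and 0.12 against -0.020 over all probe sets. Counting any probe set of a gene, 3 of the decay partners and 2 of the deaminase list were higher, and 0 were lower. For the genes around EIF2AK2 that count was 3 higher and 2 lower. A gene with several probe sets has more chances of a call. At 1, 2 and 8 hps no gene of these 3 lists was called.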
